A study of Mus musculus with 14 samples.

Results

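Isolated AHCY peaks are the sites at which chromatin immunoprecipitation with sequencing (ChIP-seq) placed AHCY far from any other site of the same library. They were taken from the replicate 1 peak list on the 16 chromosomes 1 to 5, 7, 9, 10 and 12 to 19. A peak was isolated when the gap to its neighbour, edge to edge and on both sides where a neighbour existed, was over 500 kb. The rule found 322 peaks among 3600 on these chromosomes (8.94%) and among 4465 in the whole list. Of these 322 peaks, 310 had a neighbour on both sides and 12 were the first or last peak of a chromosome. Because positions in the replicate 1 list chose them, their gaps, scores and widths in that list are given as descriptions. The replicate 2 list took no part in the choice.

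AHCY, S-adenosylhomocysteine hydrolase, splits S-adenosylhomocysteine into adenosine and homocysteine. S-adenosylhomocysteine is left over whenever a methyltransferase uses S-adenosylmethionine to methylate DNA, RNA or histones, and it inhibits those same enzymes. A ChIP-seq peak is a stretch where fragments recovered with the antibody pile up above a background, and it does not by itself show direct contact of the protein with DNA.

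The cells were wild-type mouse embryonic stem cells of the male E14 line, kept in a serum-free medium with LIF, the MEK inhibitor PD0325901 and the GSK3 inhibitor CHIR99021. Both libraries used here, replicates 1 and 2, were made with the same rabbit antibody against AHCY, and nothing in the labels says whether they came from separate cultures. The series has 14 libraries. Its IgG ChIP-seq library and its 11 RNA-seq libraries are not analysed here, so specificity for AHCY over IgG was not tested at these sites. Chromosomes 6, 8 and 11 were outside the rule. The long stretch without replicate 1 peaks on chromosome 14 (45938846 to 63740632), in which replicate 2 had 224 peaks, bordered 0 isolated peaks. Positions are on the mm9 build and counted from 1. Genes and sequences are not given for the peaks, because the gene and promoter tables used here are on another build. Read numbers are unknown for both libraries.

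Among the isolated peaks the smaller gap had a median of 810.7 kb (quartiles 621.4 and 1187 kb), against 65.7 kb for the other 3278 peaks. It was over 1 Mb at 116 peaks and over 2 Mb at 37. Close to the limit, the 5 peaks just inside it had smaller gaps of 500.3 to 503.3 kb and scores of 52.0 to 118.3, and 4 of them overlapped a replicate 2 peak. The 5 just outside had gaps of 495.7 to 499.5 kb and scores of 50.6 to 71.7, and 1 of them overlapped. Of all 3600 peaks 46.6% overlapped, and 5 peaks a side are too few to compare. The limit therefore cuts a continuous range of gaps.

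The score is the value the authors' peak caller gave each peak. Both lists start at 50. What the score measures is not stated, so peaks are ranked and compared by score within a list only. The scores of both replicates at a site are given side by side, and a higher score in one list than in the other is not read as stronger binding. The strongest peak of the whole replicate 1 list was an isolated one. It lay at chr15:61815519-61819930, with a score of 346.9, and it was also the widest isolated peak, at 4412 bp. Its neighbours were 2712 kb and 2394 kb away. Replicate 2 had a peak of score 267.9 there, also isolated, and the next replicate 2 peak lay 1159 kb off. That partner ranked 45 among the 4762 replicate 2 peaks on the 16 chromosomes and 243 among 11733 in the whole replicate 2 list. The second strongest peak of the replicate 1 list was isolated as well, at chr5:129105353-129108717. It scored 302.9 in replicate 1 and 235.7 in replicate 2 (rank 78, or 357 in the whole list). Its neighbours were 3182 kb and 574.2 kb away in replicate 1. After these the isolated peaks thinned out at the top: 5 were among the best 50 peaks of the 16 chromosomes, 9 among the best 100 and 51 among the best 500, which is 10.2% against 8.94% of all peaks.

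**Figure D1:**
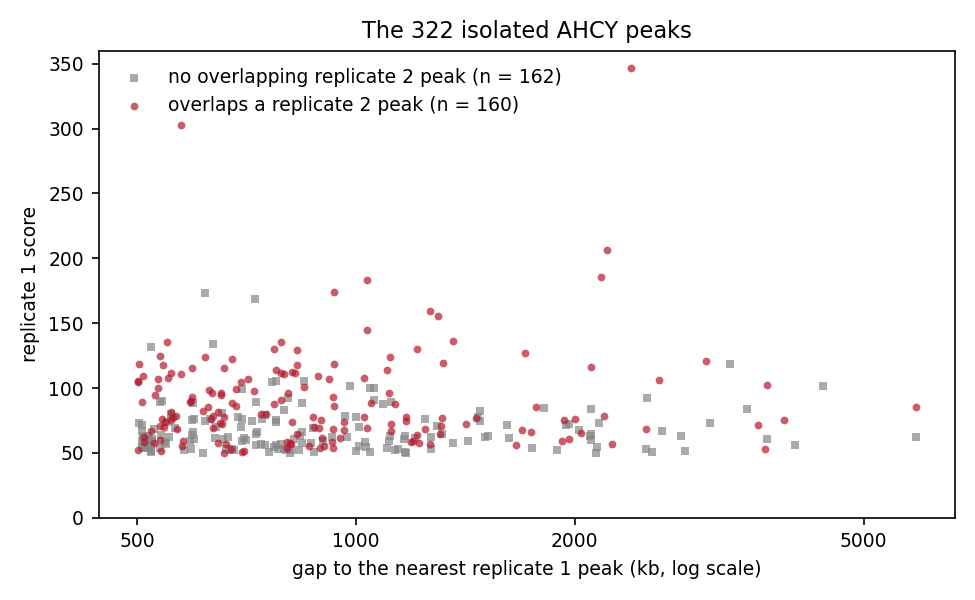
Each point is 1 of the 322 isolated peaks, placed by its gap to the nearest replicate 1 peak (kb, log scale) and its replicate 1 score, with circles for the 160 peaks that overlapped a replicate 2 peak and squares for the 162 that did not. The 2 strongest peaks, at 346.9 and 302.9, overlapped replicate 2, and peaks of both kinds are found across the whole range of gaps.

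Of the 10 isolated peaks with the highest scores, 8 overlapped a replicate 2 peak. Most peaks of such scores did so: in the best 100 of the 3600 peaks, 7 of 9 isolated and 80 of 91 other peaks overlapped. In the best 500 the counts were 46 of 51 isolated and 346 of 449 other peaks. The 9 isolated peaks in the best 100 are too few to compare. The third isolated peak by score was chr5:43623513-43625561, with a score of 206.2 in replicate 1 and 231.2 in replicate 2, isolated in both. The fourth, chr3:148650182-148653092, scored 185.6 and 218.1. Here 2 replicate 2 peaks adjoined within the site, so that the site stood alone in replicate 2 although its partner did not count as isolated, and the nearest replicate 2 peak outside it was 2174 kb away. The fifth, chr12:35731189-35732783, scored 183.2 in replicate 1 (rank 46 of 3600) and 89.8 in replicate 2 (rank 1626 of 4762), and the midpoints lay 14.5 bp apart. The sixth, chr12:57633802-57636294, had 173.9 in replicate 1 (rank 58) and 328.8 in replicate 2 (rank 15), the highest replicate 2 score at any isolated site. It stood beside a stretch of 8430 kb without a replicate 1 peak. Replicate 2 had 8 peaks in that stretch, and its nearest peak not overlapping the site lay 5.385 kb away. Within that top group, chr16:44139308-44141042 (159.3 and 110.9) and chr9:51855987-51857418 (155.6 and 247.9) were also found by both libraries. The remaining 2 were not: chr13:52677695-52679319 (173.6) and chr14:120876748-120878743 (168.5) had no overlapping replicate 2 peak, and the nearest ones lay 396.1 and 431.6 kb away. They were the strongest isolated peaks found by replicate 1 alone, ahead of chr15:40486760-40488079 (133.7), chr1:176431785-176433527 (131.7) and chr2:80286291-80288131 (118.3).

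By the mean of their relative ranks in both lists, the best isolated sites were those on chromosomes 15 and 5 at the head of the list, followed by chr12:57633802-57636294. Further down that ranking came 4 sites not yet named. The peak at chr9:82868582-82869670 scored 129.1 in replicate 1 and 284.6 in replicate 2, with midpoints 7 bp apart. At chr9:62189148-62191575 the scores were 135.9 and 204.3, at chr2:68308775-68310823 they were 124.0 and 200.2, and at chr12:82731279-82733354 they were 124.7 and 198.2. Of all replicate 1 peaks in the highest of 4 score groups (from 87.73), 71.6% overlapped a replicate 2 peak. On every chromosome the strongest isolated peak scored at least 104.5 in replicate 1, and on 13 of the 16 it overlapped. The lowest of these were chr10:53794587-53795956, at 104.5 in replicate 1 and 59.2 in replicate 2, and chr19:36422485-36424311, at 107.9 and 88.8. Between them and the head of the list lay chr7:103360017-103362138 (129.9 and 78.3), chr4:104039173-104041059 (118.0 and 67.2), chr18:7868218-7869396 (113.8 and 110.0) and chr17:63230196-63232308 (110.7 and 138.1). A strong score in replicate 1 therefore went with anything from a weak to a strong score in replicate 2 at these sites.

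The most remote peaks were of ordinary strength. Only peaks with a neighbour on both sides were ranked by the smaller gap. The 10 with the largest smaller gap (3276 to 5898 kb) had replicate 1 scores of 56.3 to 118.3. Of these 10, 4 overlapped a replicate 2 peak, against 46.6% of all 3600 peaks. Neighbours on chromosome 4 led this group. At chr4:76095120-76096569 the score was 85.7, with gaps of 5898 and 5949 kb. Replicate 2 had a peak of 97.6 there, and no other within 4233 kb. The peak before it, chr4:70196061-70197408, scored 62.1 and had no partner, and replicate 2 had nothing within 1664 kb of it. Others found by both libraries in otherwise empty surroundings were chr12:46174434-46176163 (75.5 and 76.5), with no other replicate 2 peak within 5001 kb, chr16:72663001-72664187 (102.7 and 89.2) and chr13:85427874-85429024 (71.3 and 104.0). In all 4 pairs the replicate 2 peak was isolated as well. The other 5 without a partner were chr10:102830030-102831512 (101.5), chr12:16966929-16967627 (56.3), chr16:76343522-76345192 (60.8), chr5:12719438-12720178 (83.8) and chr2:80286291-80288131, named above.

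A site counted as found by both libraries when their peaks had at least 1 bp in common. Of the 322 isolated peaks, 160 overlapped a replicate 2 peak (49.7%, exact 95% binomial interval 44.1 to 55.3%). Of all 3600 peaks on the 16 chromosomes 46.6% did so, and of the 3278 others 1519 (46.3%, 44.6 to 48.1%). The difference was 3.35 percentage points, with a Newcombe 95% interval of -2.34 to 9.04 that includes 0. At this number of peaks no difference in overlap was detectable. With only the better-scoring 50% of each list, in which 458 replicate 1 peaks were isolated, the difference was 7.43 points (2.14 to 12.7), and with a gap limit of 1 Mb it was -0.09 points (-9.07 to 9.10). These intervals cover counting error only. With 1 pair of libraries the overlap has no replicate, and neighbouring peaks are not independent, so no p-value is given.

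The comparison came out alike from the other side. Applied to the replicate 2 list on the same chromosomes, the rule found 294 isolated peaks among 4762 (6.17%). Of these, 114 overlapped a replicate 1 peak (38.8%, exact 95% interval 33.2 to 44.6%), against 35.4% of all and 1572 of 4468 others (35.2%, 33.8 to 36.6%). This difference was 3.59 points (-1.98 to 9.44). Divided by gap, replicate 1 peaks overlapped in 43.8% of 736 cases with a neighbour within 20 kb, in 45.3% of 391 with a gap of 250 to 500 kb, in 51.5% of 206 with a gap of 500 to 1000 kb and in 43.2% of 37 with a gap over 2 Mb. The shares showed no steady course with gap.

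**Figure D2:**
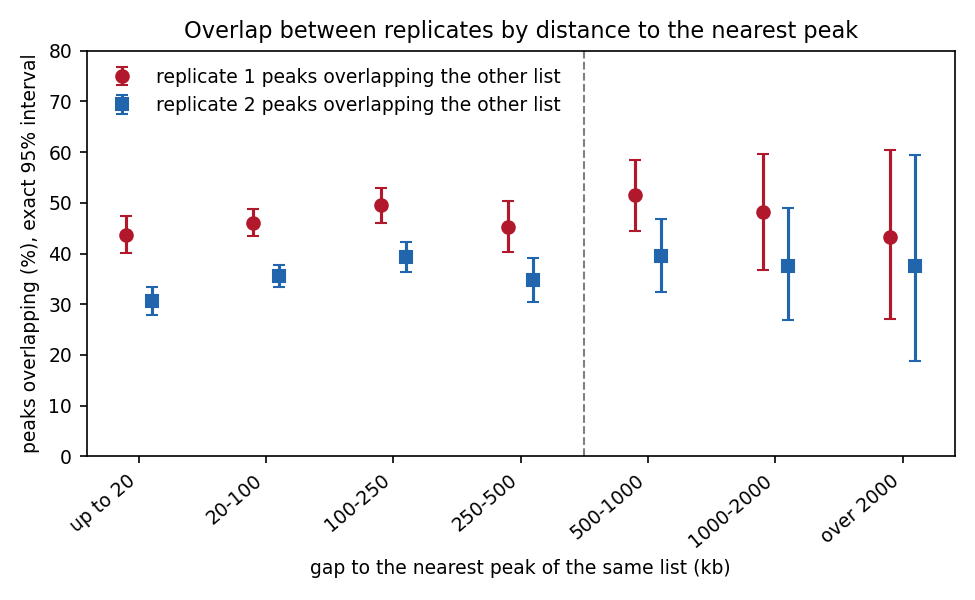
The horizontal axis groups peaks by the gap to the nearest peak of their own list (kb), and the vertical axis gives the share overlapping a peak of the other list (%), with exact 95% intervals; circles are replicate 1 peaks, squares are replicate 2 peaks, and groups right of the dashed line meet the isolation rule. Replicate 1 shares lie between 43.2% and 51.5% and replicate 2 shares between 30.6% and 39.5%, with wide intervals for the few peaks over 2000 kb.

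Score went with overlap far more than isolation did. Isolated peaks with a replicate 2 partner had a median replicate 1 score of 79.4 (quartiles 66.8 and 107.9), and those without one 62.7 (55.7 and 75.8). All 3600 peaks were ranked by score and split into 4 groups of nearly equal size. The isolated peaks overlapped in 15 of 63 cases in the lowest group (23.8%, against 26.1% of all peaks in it). In the second group the count was 26 of 77 (33.8%, against 36.9%). In the third it was 50 of 91 (54.9%, against 51.9%), and in the highest 69 of 91 (75.8%, against 71.6%). The difference between isolated and other peaks ran from -3.46 to 4.66 points over the groups, and every one of the 4 Newcombe intervals included 0. In the replicate 2 list the isolated shares rose from 16.4% through 24.2% and 43.0% to 62.8%, and the differences ran from -2.43 to 7.04 points, again with 0 inside each interval. Weighted by the isolated peaks in each group, the difference was 0.956 points in replicate 1 and 1.81 in replicate 2.

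**Figure D3:**
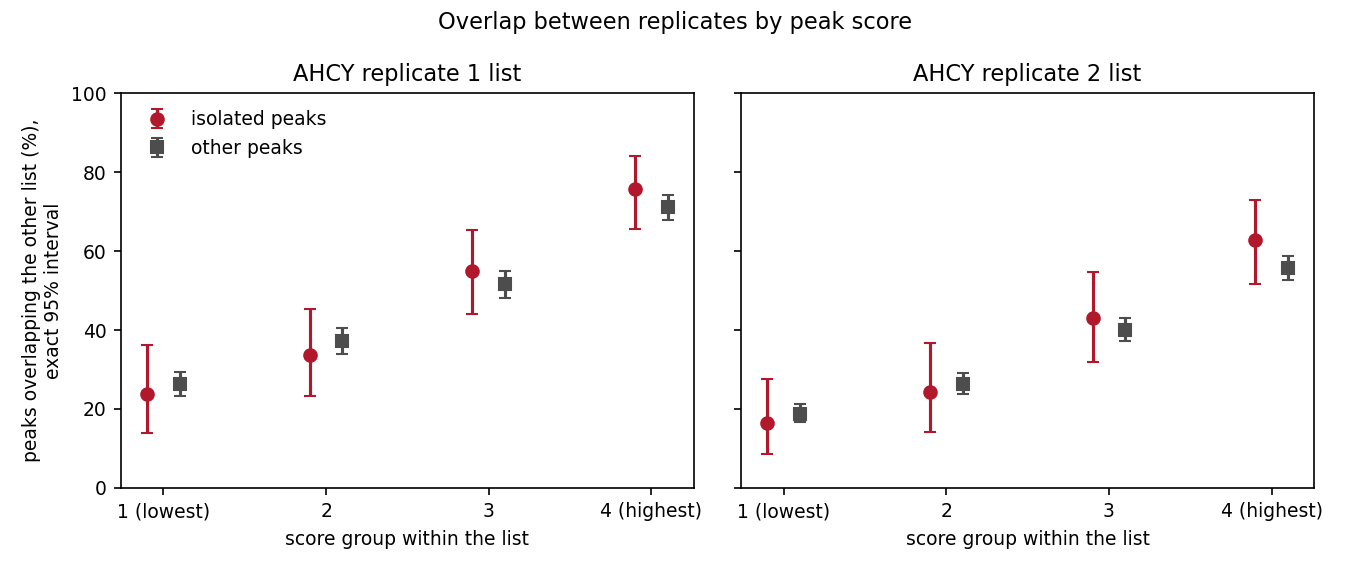
Peaks of each list are divided into 4 groups by score (horizontal axis), and the share overlapping the other list (%) is drawn with its exact 95% interval for isolated peaks (circles) and other peaks (squares). In both lists the shares climb with score, from 23.8% to 75.8% for isolated replicate 1 peaks, and the intervals of isolated and other peaks overlap in each group.

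Isolated peaks scored slightly higher than the rest. The median was 71.1 (quartiles 59.0 and 89.6) against 67.1 (56.7 and 87.4), a difference of 4.04, small beside the spread in either set. The difference was 1.46 with a gap limit of 250 kb and 2.58 with chromosomes 6, 8 and 11 included. In the replicate 2 list the medians were 79.5 for its 294 isolated peaks and 73.5 for the others, a difference of 6.04. By chromosome the isolated median was the higher one on 10 of 16. Isolated peaks made up 6.99% of the lowest score group of replicate 1 and 8.57, 10.1 and 10.1% of the next 3.

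Isolated peaks were narrower. Their median width in replicate 1 was 1330.5 bp (quartiles 1045 and 1809 bp), and that of the other peaks 1585 bp (1200 and 2132.5 bp), a difference of -254.5 bp. Only 5 of the 322 (1.55%) reached 3 kb, compared with 271 of the others (8.27%). These 5 were the strong sites on chromosomes 15 and 5 described above, chr4:57967096-57970784 (3689 bp), chr17:30920226-30923628 (3403 bp) and chr14:13175982-13179291 (3310 bp). Those on chromosomes 4 and 17 scored only 81.0 and 54.5 and had no replicate 2 partner. The one on chromosome 14 scored 111.7 and 121.8 in the replicates, and its replicate 2 peak was 3225 bp wide and isolated too. The isolated median was the lower one on 15 of 16 chromosomes, the exception being chromosome 14 with 1511 bp for isolated and 1409 bp for other peaks.

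The narrower width was also seen where the score was alike. In the 4 score groups of replicate 1, from lowest to highest, the isolated median minus that of the other peaks was -307.5, -284, -319 and -361.5 bp. In the highest group it was 1687 bp against 2048.5 bp. The library that did not choose the peaks gave the same direction. The replicate 2 partners of isolated peaks had a median width of 1408.5 bp (160 pairs, quartiles 1123 and 1787 bp), against 1569 bp (1225 and 2041 bp) for the partners of the other 1519. The rule was also applied to the positions of the replicate 2 list itself, on the same chromosomes. The replicate 2 peaks isolated in this way had a median width of 1291 bp, against 1443 bp for the other replicate 2 peaks there. Median width was also smaller at larger gaps within the limit. In replicate 1 it was 1749.5 bp for peaks with a neighbour within 20 kb, 1632, 1516 and 1384 bp in the next 3 groups, 1397 bp from 500 to 1000 kb and 1189 bp over 2 Mb.

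**Figure D4:**
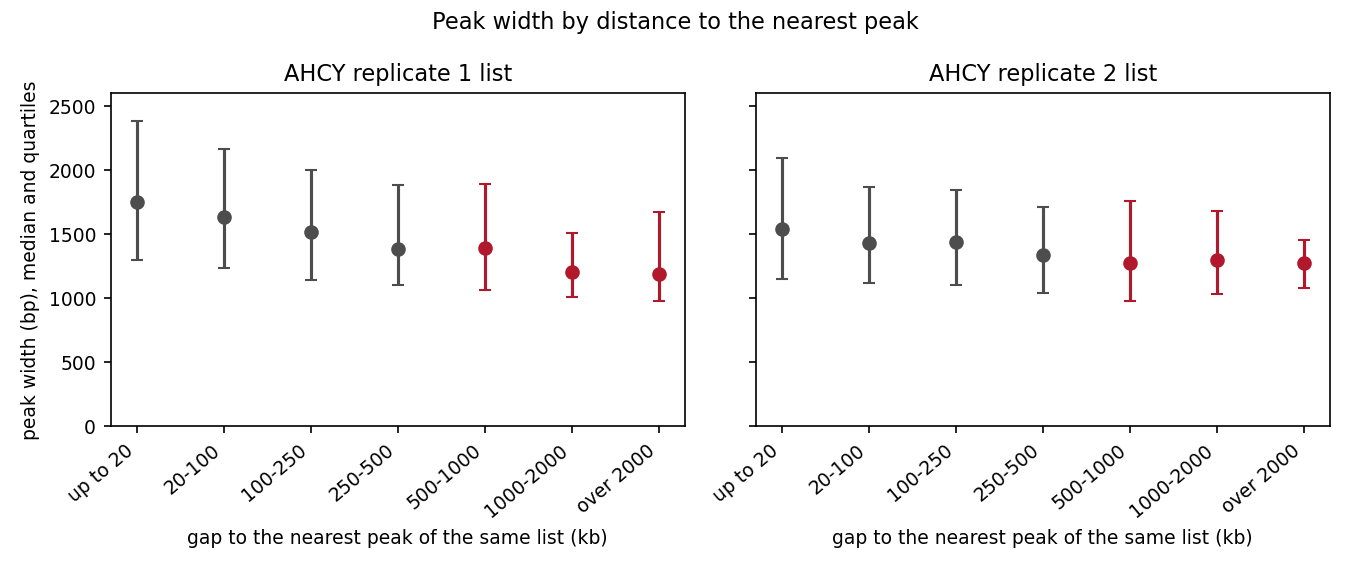
Points give the median peak width (bp) and bars its quartiles for peaks grouped by the gap to the nearest peak of the same list (kb), with replicate 1 on the left and replicate 2 on the right; the 3 right-hand groups of each panel meet the isolation rule. The medians go down from 1749.5 to 1189 bp in replicate 1 and from 1540 to 1276.5 bp in replicate 2, while the quartiles of neighbouring groups overlap widely.

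The overlap was also compared at similar widths. When replicate 1 peaks were divided by width into 4 groups, a comparison added after seeing the data, the shares for isolated and other peaks were 36.2 and 32.9% in the narrowest, 48.8 and 46.8% in the second, 62.7 and 49.9% in the third and 68.8 and 54.6% in the widest. The third group's difference of 12.8 points had a Newcombe interval of 0.366 to 23.9, and the intervals of the other 3 groups included 0. In the widest group the difference was 14.1 points (-0.360 to 25.9), and the isolated peaks there were still narrower, with a median of 2423 bp against 2634 bp. In the replicate 2 list the differences, from narrowest to widest, were -3.36 points (-10.6 to 5.99), 5.95 (-4.79 to 17.4), 5.51 (-6.03 to 17.6) and 20.4 (6.37 to 32.7). Weighted by the isolated peaks in each group, the difference was 6.54 points in replicate 1 and 5.25 in replicate 2. In both groups whose interval lay above 0 the isolated peaks also had the higher median score, by 10.96 in replicate 1 and 23.4 in replicate 2. In the groups whose interval included 0, the difference in median score ran from -0.86 to 22.985, both in replicate 2. It was 10.64 in the second group of replicate 1 and 2.835 in the widest. The part of score in the overlap difference was not tested.

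Where both libraries had a peak, they placed it closely. The midpoints of the 160 isolated pairs lay a median of 151.5 bp apart (quartiles 59.9 and 370.8 bp), and those of the other pairs 181.5 bp (66 and 377 bp). The stretch covered by both peaks had a median length of 1164.5 bp in isolated pairs and 1355 bp in the other pairs. The partners of isolated peaks had a median replicate 2 score of 97.2 (quartiles 73.7 and 125.0), and those of the others 92.3 (68.3 and 127.8). Of the isolated pairs, 71 (44.4%) had a partner in the highest of 4 equal-sized score groups of the replicate 2 list, against 39.9% of the other pairs. Across the 160 pairs the scores of the replicates were related with a Spearman's rho of 0.355, across the 1519 others with 0.275. All points come from the same pair of libraries, so these values describe those libraries only.

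The second library also asked whether the surroundings were empty. Around the isolated peaks replicate 1 has no other peak within 500 kb by the rule. Replicate 2 had none there besides overlapping ones at 130 of 322 (40.4%, exact 95% interval 35.0 to 46.0%), and at 114 of the 3278 other peaks (3.48%, 2.88 to 4.16%). Exactly 1 such replicate 2 peak was found at 83 isolated peaks and 2 at 53. The median was 1 (highest 7), against 5 (highest 24) around other peaks. More than 5 replicate 2 peaks lay near 2 isolated peaks (0.621%) and near 40.1% of the others. Replicate 2 peaks covered a mean of 0.182% of the flanks of isolated peaks and 0.936% of those of other peaks. The flanks chosen as empty in replicate 1 were thus sparse in replicate 2 as well, though usually not bare.

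**Figure D5:**
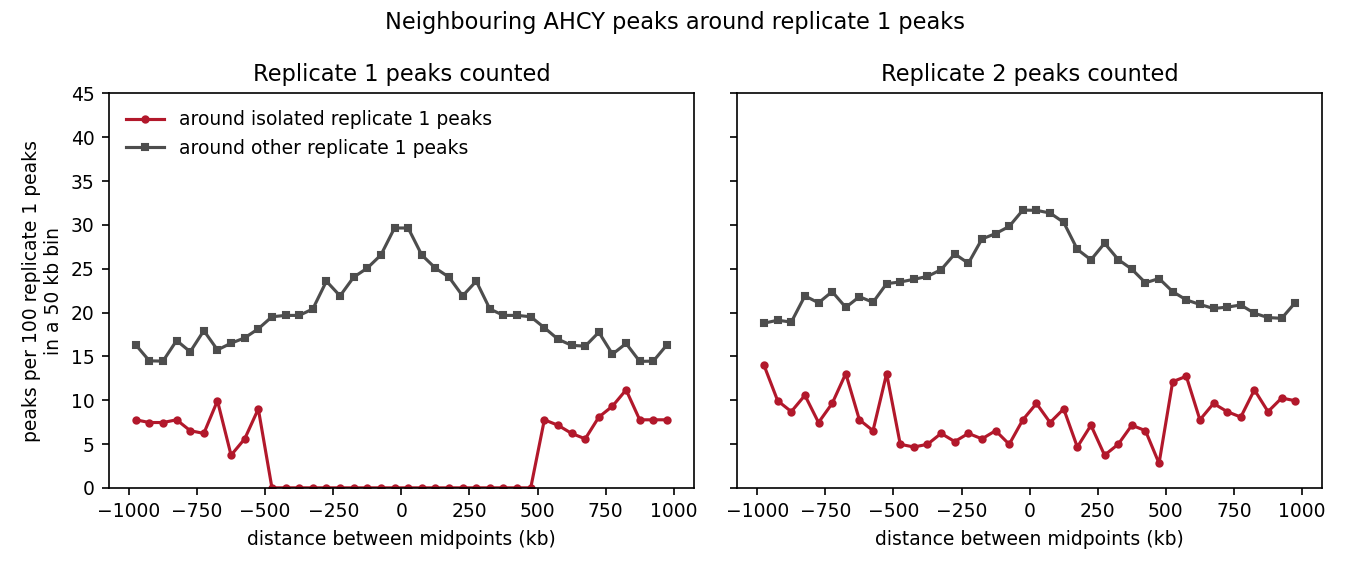
The curves count peaks per 100 replicate 1 peaks in 50 kb bins by the distance between midpoints (kb), leaving out the peak itself and any peak overlapping it, for replicate 1 on the left and replicate 2 on the right; circles are for isolated and squares for other replicate 1 peaks. Replicate 1 is at 0 within 500 kb of isolated peaks by the rule, while replicate 2 averages 6.01 peaks per 100 in these bins (27.0 around other peaks) and 9.98 in the bins from 500 to 1000 kb (20.8).

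In the 50 kb bins within 500 kb of isolated peaks, replicate 2 peaks numbered from 2.80 to 9.63 per 100 isolated peaks. The highest value was that of the bin from 0 to 50 kb, and the bin on the other side of the peak had 7.76. Around other peaks the bins ranged from 23.4 to 31.7, and they too were highest next to the peak. Only 20 isolated peaks (6.21%) had a replicate 2 peak within 20 kb that did not overlap them, against 22.5% of the others. The 162 isolated peaks without a partner were no exception. The nearest replicate 2 peak was a median of 299.9 kb away, 5 had one within 5 kb and 7 within 20 kb, and 61 had none within 500 kb. For most of the 162, therefore, replicate 2 listed no peak at a slightly shifted position.

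The long gaps that border isolated peaks can be counted in the same way. There were 515 such gaps of over 500 kb between neighbouring replicate 1 peaks, 937.7 Mb in all. Replicate 2 had 772 peaks inside them, or 0.823 per Mb, and none in 164 of them (31.8%). Over all 899 gaps of more than 500 kb, which include the stretch on chromosome 14 with 224 replicate 2 peaks, it had 1.05 per Mb and left 29.4% empty. In gaps of up to 500 kb it had 3.59 per Mb, and 67.0% of these short gaps were empty. Without chromosome 14 the value for the gaps bordering isolated peaks was 0.814 per Mb. The median score of the replicate 2 peaks inside them was 66.1, and 65.9 without chromosome 14. The longest was on chromosome 1, from 108693504 to 120207179 (11.5 Mb), and it held 0 peaks in replicate 2. Another on chromosome 1, from 140860645 to 152240261 (11.4 Mb), held 3, with scores of up to 154.4. The gap on chromosome 14 from 106298591 to 117324477 (11.03 Mb) had an isolated peak on both sides and held 2 replicate 2 peaks, 1 of them scoring 284.2. The most in any gap bordering an isolated peak was 9.

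Sites isolated in both libraries are the most stringent set. Of the 322 isolated peaks, 67 (20.8%, exact 95% interval 16.5 to 25.7%) had a best-scoring partner that met the rule in replicate 2, against 3.22% of all replicate 1 peaks and 49 of the 3278 others (1.49%). These 67 are 22.8% of the 294 isolated replicate 2 peaks. Because the sparse flanks were chosen in replicate 1, this comparison carries the same sparseness as the flank counts and adds no separate evidence. The 67 sites had a median score of 78.5 in replicate 1 and 92.3 in replicate 2, and median widths of 1433 and 1413 bp. The 93 isolated peaks with a partner that was not isolated were of similar strength, at 79.97 and 100.3.

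The share of peaks that were isolated differed between chromosomes. Chromosome 14 had 21 of its 96 peaks isolated (21.9%), chromosome 13 33 of 193 (17.1%), chromosome 3 31 of 199 (15.6%) and chromosome 12 22 of 164 (13.4%). The lowest shares were 8 of 177 (4.52%) on chromosome 19 and 15 of 311 (4.82%) on chromosome 7. Counted by span, isolated peaks ran from 1.01 per 10 Mb on chromosome 7 to 2.86 on chromosome 13. Chromosome 14 had 1.82 and chromosome 19 had 1.39, a smaller contrast than in the shares. Of all peaks, chromosome 19 had the most per Mb of its span, at 3.07, and chromosome 14 the fewest, at 0.834. Over the 16 chromosomes the isolated share and the peaks per Mb were related with a Spearman's rho of -0.862. The number of peaks on a chromosome enters both measures, so part of this relation is built in. The part of peak density in the uneven shares was not tested. The share overlapping replicate 2 was higher for isolated than for other peaks on 8 chromosomes and lower on 8. It was highest on chromosome 3, with 22 of 31 (71.0%, exact 95% interval 52.0 to 85.8%), against 50.6% of the other peaks there. It was lowest on chromosome 7, with 5 of 15 (33.3%, 11.8 to 61.6%), against 43.6%. With 8 to 33 isolated peaks per chromosome these intervals are wide, and differences between chromosomes were not tested.

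Many isolated peaks had an isolated peak as the next one along the chromosome. Of the 322, 131 stood between peaks that were not isolated, and the other 191 (59.3%) formed 74 runs of at least 2. By the rule, the neighbour of an isolated peak already has 1 gap over 500 kb, so part of this share is built in. Clustering beyond that was not tested. There were 5 runs of 5 or more, with 26 peaks in all. The longest run had 6 peaks, from 81849359 to 94075307 of chromosome 13 (12.2 Mb). Their scores ran from 54.1 to 111.8, 5 of the 6 overlapped replicate 2, and replicate 2 had 12 peaks in the whole stretch. A run of 5 on chromosome 16, from 64770052 to 84836787, stretched over 20.1 Mb, with 1 of 5 overlapping and 12 replicate 2 peaks. The runs of 5 on chromosome 14 at 106297432 to 120878743 and 12385886 to 19104197 had 2 and 3 overlapping peaks, and that on chromosome 13 at 65341704 to 71050054 had 1. Of all 3600 peaks 46.6% overlapped, and runs of 5 or 6 peaks are too short to compare with that share.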

How the data were processed

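The peak lists of 2 AHCY ChIP-seq libraries were analysed, 1 list per library. Each gives chromosome, start, end, name and score. The score per peak was deposited by the authors; peak names carry the prefix MACS, per the file headers and columns, and no source used here states the caller's version, control or settings. One header (replicate 1) mentions a pool and the other (replicate 2) an IgG pool, so the lists may have been called differently. The submitters' processing notes name the build mm9, Bowtie and TopHat, without roles.

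Starts, which the deposited lists count from 0, were given counting from 1; other deposited values were used as they stand. Gaps were measured edge to edge within a list, and overlap was at least 1 bp. With several partners the best-scoring one was used. Shares carry exact 95% (Clopper-Pearson) intervals, and differences between shares Newcombe intervals, all for counting error only. Ranks and the 4 score or width groups were taken within a list on the 16 chromosomes. Scores and widths in the list that chose the peaks were not tested.

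The regions named are the 10 isolated peaks with the highest score, the 10 with the largest smaller gap, the 5 widest, the best on each chromosome, the 10 best by mean relative rank with a partner, the 5 best without one, and 5 on each side of the limit. The 10 with the largest smaller gap were taken from peaks with a neighbour on both sides. The members, rules and comparisons were chosen with earlier results of these data known. Gap and overlap steps were tested on simulated data. The tools were scipy 1.17.1, statsmodels 0.14.6, pandas 2.3.3, numpy 2.4.6 and matplotlib 3.10.9 in Python 3.11.15.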

Additional observations from a re-analysis of the deposited data

How the results depend on the processing

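The share of isolated peaks overlapping replicate 2 ran from 44.1% to 51.9% over 11 alternatives, all inside the interval of the 49.7% reported. The difference from other peaks ran from -0.09 to 7.43 percentage points over 13, and 10 of 11 intervals included 0. The exception was the better-scoring 50% of each list, with 458 isolated peaks (7.43 points, 2.14 to 12.7). Added after seeing the data, the comparison within width groups gave 6.54 points and that within score groups 0.956. With a gap limit of 250 kb there were 713 isolated peaks, 174 of them isolated in both replicates, and with 1 Mb 116 and 17. The difference in median score was 1.46 at 250 kb, 2.58 with chromosomes 6, 8 and 11 included, and 6.04 without replicate 1, that is, in the replicate 2 list. The difference in median width was -374 bp at 1 Mb and -152 bp without replicate 1. Isolated peaks stayed higher in score and narrower in all 7 alternatives of each. No paired analysis was possible because both libraries belong to 1 group. Overlap has no value with 1 replicate left out. Depth is unknown, so a site missing from a list may have fallen below its lowest score of 50.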
